A study of Mus musculus with 18 samples.

Results

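Binding of the transcription factor ATF4 was examined at 7 genes of the CHOP axis and of stress-induced cell death, namely Ddit3, Trib3, Chac1, Bbc3, Pmaip1, Bcl2l11 and Tnfrsf10b, among 21887 protein-coding mouse genes. For each gene, the peaks called by chromatin immunoprecipitation with sequencing were collected in the gene body and 20 kb on either side. Primary immature neurons from day 14 mouse embryos, cultured for 2 days in medium with serum, were given 10 mM 2-deoxyglucose (2-DG, a glucose analogue that blocks glycolysis) for 6 h, or were left untreated as controls. Peak lists of 4 2-DG and 4 control immunoprecipitations were compared, out of 10 lists and 18 samples. The series design names an ATF4 antibody for both treatments, whereas the antibody label names it for the 2-DG samples and reads none for the control samples. Treatment and a possible difference in antibody cannot be told apart in these lists. Nothing ties the lists to separate cultures, and the design states 3 independent replicates, so p-values measure the spread between these lists, which may be technical. The cultures are labelled as neurons, and peak lists do not measure markers that could check this. A peak drawn from many cells also cannot tell more cells with the factor bound from more factor bound per cell.

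ATF4 is translated when the initiation factor eIF2 is phosphorylated under stress. It binds, often together with a C/EBP family partner, at composite elements in the genes of the integrated stress response. One of its best known target genes is Ddit3, whose product CHOP is itself a C/EBP family factor. CHOP is known to act with ATF4 on Trib3 and Chac1, and prolonged CHOP activity is associated with death through BH3-only proteins and death receptors. The BH3-only proteins PUMA (Bbc3), NOXA (Pmaip1) and BIM (Bcl2l11) disable pro-survival BCL-2 proteins at mitochondria, and Tnfrsf10b encodes the death receptor DR5.

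The members fell into 2 sets by their peaks. Ddit3, Trib3, Chac1 and Bbc3 had a peak in all 4 2-DG lists and in 1, 1, 2 and 0 of the 4 control lists. Pmaip1 and Bcl2l11 had a peak in 2-DG list 1 alone, and Tnfrsf10b had none in any of the 8 lists. A peak in all 4 2-DG lists, whatever the controls, was thus found at 4 of 7 members, where 5.95% of all protein-coding genes had one. A peak in all 4 2-DG lists with every control list empty was found at 1 member, Bbc3, where 1.51% of all genes showed this. At least 1 of the 8 lists held a peak at 6 members (55.1% of all genes), and at least 3 control lists held one at 0 members (4.83% of all genes). Within 2 kb of either gene end, 3 members had a peak in all 4 2-DG lists (Ddit3, Trib3 and Chac1), where 1.03% of all genes had one. Near its ends Trib3 alone of the members also lacked any control peak, where 0.567% of all genes did. The windows of the members were 43085 to 76510 bp long, and the median over all genes was 57169 bp. The lists held 15240, 7369, 6371 and 5856 peaks after 2-DG and 3461, 3784, 8202 and 6811 in control. They carry no read counts, so their depth is unknown, and where a gene is said to have no peak, no peak was called.

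**Figure D1:**
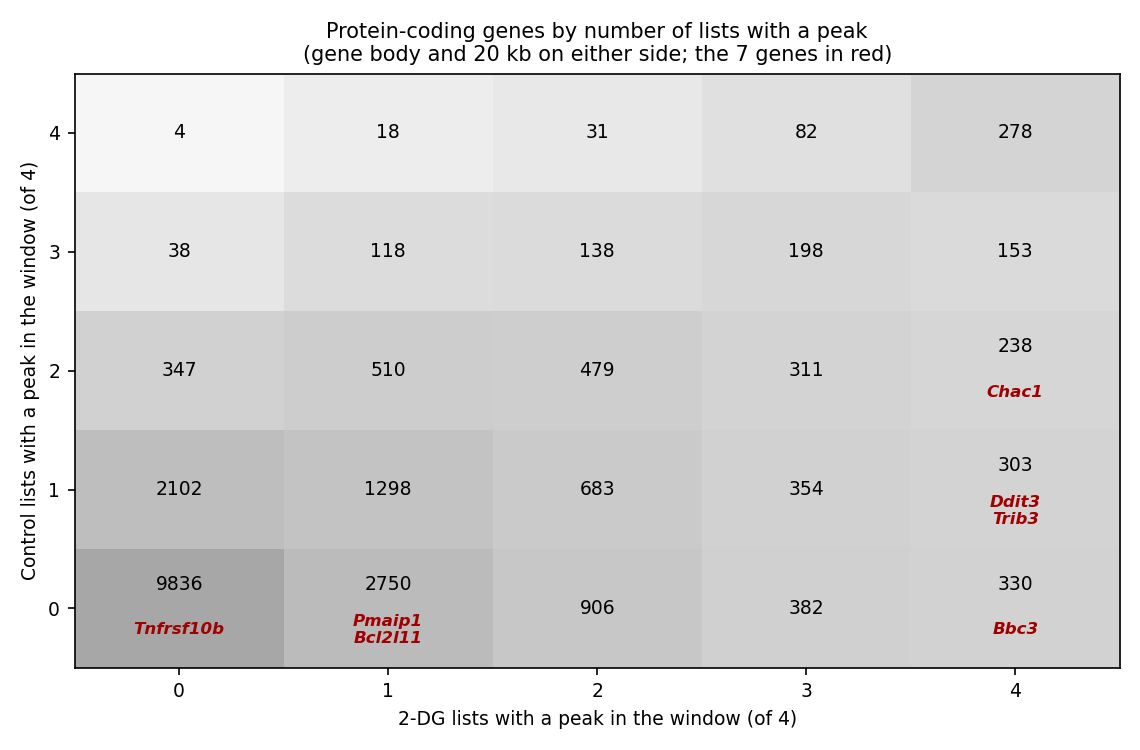
Protein-coding genes by the number of 2-DG lists (horizontal axis, 0 to 4) and of control lists (vertical axis, 0 to 4) with a peak in the gene body and 20 kb on either side. Each cell gives its number of genes (darker for more) and names the members in it, with Bbc3 among the 330 genes at 4 2-DG and 0 control lists, and Tnfrsf10b among the 9836 genes with no peak in any list.

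The promoter sequences of Chac1 and Trib3 are shown because the highest summits of all 4 2-DG lists fell inside them. Each runs from 250 bases before the gene start to 50 after it, 5′ to 3′ on the gene's strand, from RefSeq (GRCm38.p6), and lies at chr2:119350992-119351291 on the plus strand for Chac1 and at chr2:152344011-152344310 on the minus strand for Trib3. Capitals mark a match to TGATGNAA, the core of the element bound by ATF4 with C/EBP partners, read here on the opposite strand.
Chac1: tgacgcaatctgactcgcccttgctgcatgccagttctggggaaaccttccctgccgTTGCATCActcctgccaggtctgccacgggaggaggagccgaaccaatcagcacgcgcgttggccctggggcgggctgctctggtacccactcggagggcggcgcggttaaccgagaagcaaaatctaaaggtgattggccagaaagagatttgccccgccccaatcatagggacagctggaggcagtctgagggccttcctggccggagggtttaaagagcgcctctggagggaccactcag
Trib3: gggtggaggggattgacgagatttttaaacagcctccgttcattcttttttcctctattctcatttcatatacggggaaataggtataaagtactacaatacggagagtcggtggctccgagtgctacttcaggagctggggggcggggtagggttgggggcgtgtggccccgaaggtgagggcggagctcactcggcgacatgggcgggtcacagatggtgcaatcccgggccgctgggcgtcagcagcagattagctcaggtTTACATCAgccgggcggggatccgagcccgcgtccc
The Chac1 match, TTGCATCA, lay 193 to 186 bases before the gene start, and the Trib3 match, TTACATCA, lay 14 to 21 bases after it. This core, searched on both strands, was present in 766 of 21263 promoter windows of protein-coding genes (3.60%). Of the 38 promoter windows touched by a peak in every 2-DG list but by none in control, Trib3 among them, 18 (47.4%) held it. The full element TGATGCAAT was in 0.179% of all windows and in none of the members' windows, and neither were the cyclic AMP response element TGACGTCA (2.23% of all windows), the C/EBP palindrome TTGCGCAA (0.221%) or the endoplasmic reticulum stress element (0.141%). A looser form, TGNNGCAA, was added after the sequences were seen. It was in 10.8% of all windows, includes the Chac1 core match, and matched TGACGCAA at 250 to 243 bases and TTGCTGCA at 230 to 223 bases before the Chac1 start, and TGGTGCAA at 33 to 26 bases before the Trib3 start. Promoter windows were given for 5 members, and those of Ddit3, Bbc3 (3 windows) and Bcl2l11 (2 windows) held no match to any of these motifs. These windows do not cover the 2-DG summits at Ddit3, or the recurrent regions upstream of Trib3 and Bbc3 described below. Sequence there was not searched. A match describes letters in the window and is no measure of binding.

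Chac1, which encodes an enzyme that degrades glutathione, had the highest peak of the 7 genes in every 2-DG list. Its fold enrichment over local background, the authors' value for each peak, was 142, 128, 69.0 and 66.7 in 2-DG lists 1 to 4, and 13.8 in control list 1. By fold, the peak ranked 7, 8, 16 and 19 within the 2-DG lists and 86 within control list 1. Control lists 2, 3 and 4 had no peak at this place. The gene lies at chr2:119351242-119354326 (mm10, plus strand), and the peak was a broad one of 1431 to 2236 bp across the gene start in the 2-DG lists and 1444 bp in control list 1. Its highest summit lay 224, 213, 179 and 171 bp before the gene start in 2-DG lists 1 to 4, and 177 bp before it in control list 1. The summits of both treatments thus lay within the same stretch, at 31, 20, 7 and 15 bp from the TTGCATCA match in the 2-DG lists and at 9 bp in control list 1. The looser match TTGCTGCA lay 0, 10, 44 and 52 bp from the summits of 2-DG lists 1 to 4 and 46 bp from that of control list 1, so it was the nearer match in 2-DG lists 1 and 2. The looser match TGACGCAA lay 19, 30, 64 and 72 bp away in the 2-DG lists and 66 bp away in control list 1. The peak in control list 3 that also counts for Chac1 was a separate, narrow interval of 143 bp with its summit 1499 bp before the start, a fold of 4.68 and a rank of 3926. Counted at the start region alone, Chac1 thus had 1 control list with a peak in place of 2.

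Trib3, which encodes a pseudokinase that restrains AKT and CHOP, had 2 regions called in every 2-DG list and absent from the control lists. The start region had a fold of 58.8, 37.7, 21.5 and 24.9 in 2-DG lists 1 to 4, and ranked 56, 88.5, 97.5 and 100.5 within them. No control list had a peak there. The gene lies at chr2:152337425-152344060 (mm10, minus strand). Summits lay 40, 15, 10 and 25 bp before the gene start, a spread of 30 bp over the 4 lists, between the TGGTGCAA match (1 to 16 bp away) and the TTACATCA match (24 to 54 bp away) or just before both. A further region, at chr2:152349752-152350278, lay about 6 kb before the start, with summits 6003 to 6027 bp from it. Its fold was 20.4, 13.2, 7.34 and 8.96 in 2-DG lists 1 to 4, and it ranked 384, 496.5, 717 and 632 within them. This region lay inside the long non-coding RNA gene Gm14164, and the nearest protein-coding gene end was that of Trib3. In each 2-DG list the upstream region had a lower fold than the start region. The single control peak in the Trib3 window, in control list 3, lay 15996 bp before the start with a fold of 5.15, nearest to an end of Nrsn2.

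Ddit3, the gene of CHOP, had a peak across its start in all 4 2-DG lists. Control list 1 had a peak in the same region that ended 94 bp before the gene start, and the other control lists had none. The fold was 40.8, 30.2, 10.8 and 11.6 in 2-DG lists 1 to 4, and 7.27 in control list 1. Within the lists it ranked 107, 123.5, 311.5 and 383.5 after 2-DG, and 310 in control list 1, whose list is shorter. Ddit3 lies at chr10:127290793-127296291 (mm10, plus strand), and the summits lay 327, 270, 324 and 394 bp before its start in the 2-DG lists and 194 bp before it in control list 1. The 4 2-DG summits thus lay before the 250 bases of the promoter window, and the control summit inside it. The first bases of Ddit3 overlap the higher-coordinate end of Mbd6, which is the start of that gene because it lies on the opposite strand. The region thus crosses the starts of both genes and cannot be given to either alone. The Ddit3 window also took in the start of Mars1, the methionyl-tRNA synthetase gene, whose lower-coordinate end overlaps the end of Ddit3. The Mars1 region had a fold of 47.0, 42.0, 15.7 and 19.2 in 2-DG lists 1 to 4 and 12.0 in control list 1, above the Ddit3 start region in all 5 lists. The highest peak of the Ddit3 window is therefore at Mars1, and values restricted to 2 kb around the ends of Ddit3 are given beside the test below.

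Bbc3, encoding the BH3-only protein PUMA, had its recurrent peak away from the gene. The region at chr7:16294722-16295392 was called in all 4 2-DG lists but in no control list, with summits 13402, 13401, 13547 and 13508 bp before the gene start at 16308398. Its fold was 17.0, 12.1, 5.38 and 6.30 in 2-DG lists 1 to 4, and it ranked 518.5, 587, 2241 and 1339 within them. It lay between genes, and the nearest protein-coding gene end was that of Ccdc9, at 7915 bp, so its place in the Bbc3 window does not tie it to Bbc3. Closer to the gene, a narrow region with its summit 1536 or 1548 bp before the start was called in 2-DG lists 1 and 2, with folds of 7.42 and 3.91. The 3 Bbc3 promoter windows belong to transcript starts at 16309583, 16310261 and 16310431, downstream of the gene's first base, and none was touched by a peak in any of the 8 lists. At -log10 q of at least 5, the upstream region remained in 3 of 4 2-DG lists, and the exact permutation p described below was then 0.143 for Bbc3.

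**Figure D2:**
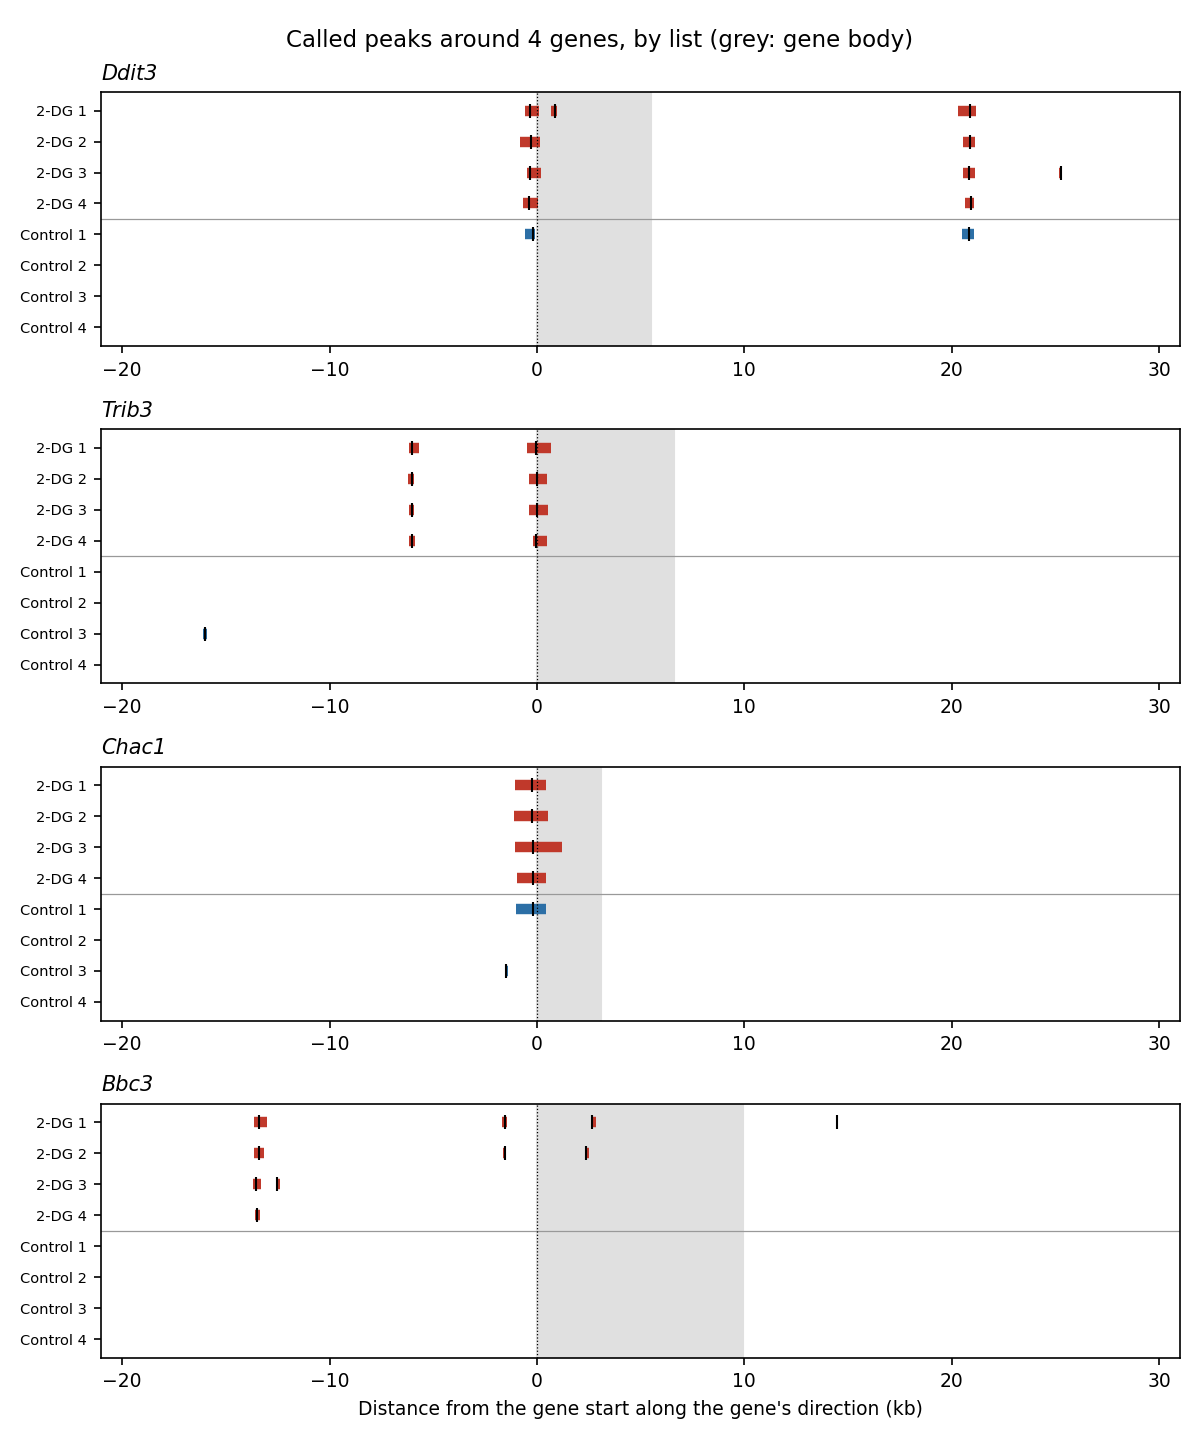
Peaks called around Ddit3, Trib3, Chac1 and Bbc3 in the 4 2-DG lists (red, upper rows) and the 4 control lists (blue, lower rows), by distance from the gene start in kb along the gene's direction. Bars span each peak, black ticks mark its highest summit and grey marks the gene body. Chac1, Trib3 and Ddit3 had peaks across the start in all 4 2-DG lists, and Bbc3 had its recurrent region 13401 to 13547 bp before the start.

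**Figure D3:**
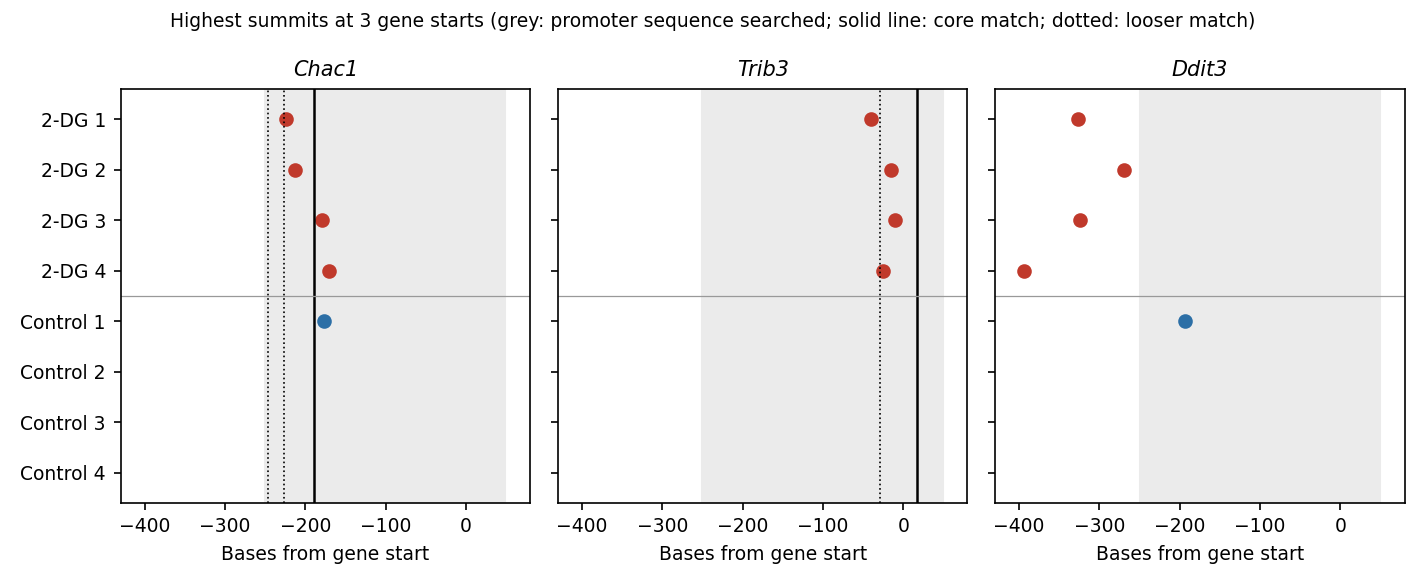
Highest summit of the start region of Chac1, Trib3 and Ddit3 in each list, in bases from the gene start. Grey marks the promoter window searched for motifs, solid lines mark TGATGNAA matches and dotted lines the looser matches. The Chac1 and Trib3 summits lay inside the window in all 4 2-DG lists, and the Ddit3 summits of the 2-DG lists lay 270 to 394 bp before the start, outside it.

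The 3 remaining members had little or nothing called. Pmaip1, encoding NOXA, had 2 peaks in 2-DG list 1, with folds of 6.50 and 7.42, at 16196 and 7461 bp outside the gene. Bcl2l11, encoding BIM, had 2 narrow peaks of 102 and 189 bp in 2-DG list 1, with folds of 4.33 and 4.02, about 27 kb inside the gene. The median fold over all peaks of that list was 4.33. 2-DG list 1 was also the longest list, and among the 3461 highest peaks of each list Bcl2l11 had none and Pmaip1 kept a peak in that list alone. Tnfrsf10b, encoding DR5, had no peak called in any of the 8 lists. Of the 19 regions in the 7 windows, 12 were found in 1 list only, 7 of them in 2-DG list 1.

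Of those 19 regions, 6 were found in all 4 2-DG lists, where 3.46% of the 35717 regions of the genome were, and 3 of them had no control peak (1.72% of all regions). By within-list rank, 5 of the 6 kept 1 order in all 4 2-DG lists. It ran from the Chac1 start through the Trib3 start, the Ddit3 start and the upstream Trib3 region to the upstream Bbc3 region. The other, the Mars1 region, ranked above the Trib3 start in 2-DG list 2 and below it in 2-DG lists 1, 3 and 4. At each of the 5 ordered regions, the folds of 2-DG lists 1 and 2 were both above those of 2-DG lists 3 and 4. No test was run on folds between lists. Summits were closest together at the upstream Trib3 region, with an SD of 10.7 bp (n = 4), and at the Trib3 start (SD 13.2 bp). They were more spread at the Chac1 start (25.7 bp), the Ddit3 start (50.8 bp) and the upstream Bbc3 region (74.5 bp).

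**Figure D4:**
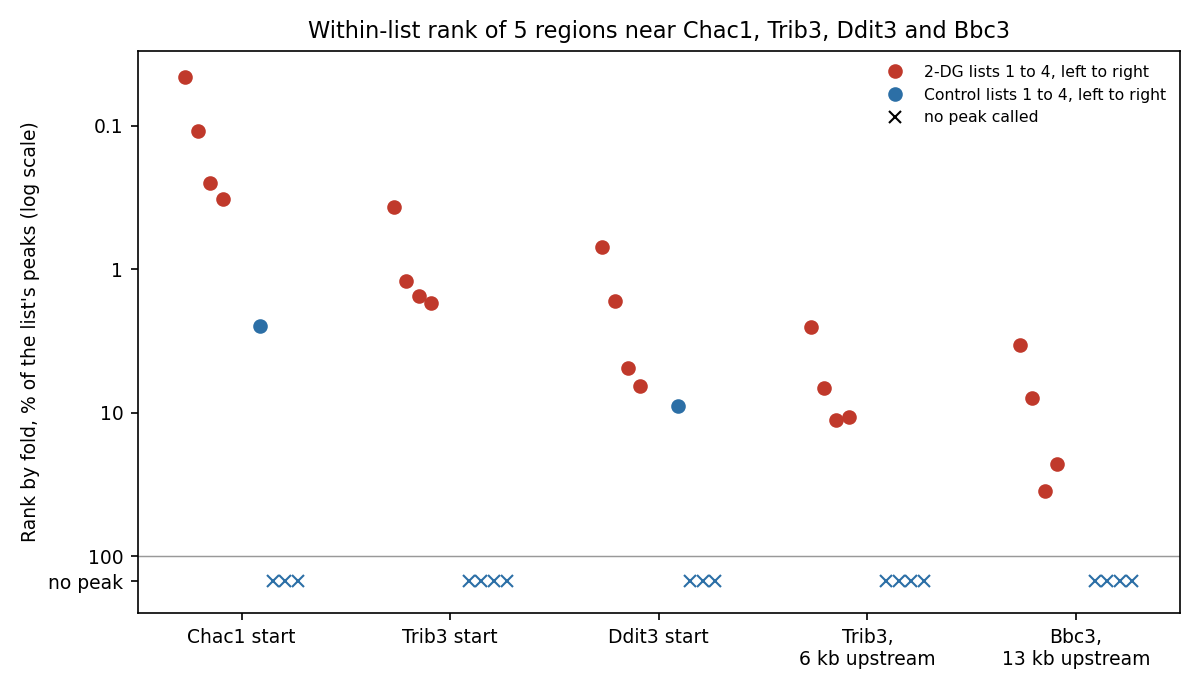
Rank by fold, as percent of the list's peaks on a log axis with the strongest peaks at the top, of 5 regions near Chac1, Trib3, Ddit3 and Bbc3. Points are lists, the 4 2-DG lists (red) left of the 4 control lists (blue), and crosses mark lists without a peak there. The control peaks, both from control list 1, were at the Chac1 start (rank 86 of 3461) and the Ddit3 start (rank 310 of 3461).

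Whether these genes differed between treatments was tested on the within-list percentile of the highest peak in each window, where 100 is the highest peak of a list and 0 means no peak. Chac1 averaged 99.8 ± 0.124 over the 2-DG lists and 37.4 ± 47.0 over the control lists (SD, n = 4 each), a difference of 62.4 percentile points. Trib3 averaged 98.8 ± 0.592 over the 2-DG lists and 17.0 ± 34.0 over the control lists, a difference of 81.8. The Trib3 control value comes from the interval 15996 bp before its start in control list 3, nearest to Nrsn2. Ddit3 averaged 98.3 ± 1.11 over the 2-DG lists and 24.2 ± 48.4 over the control lists, a difference of 74.1. These Ddit3 values are those of the peak at the Mars1 start. Bbc3 averaged 82.7 ± 14.5 in the 2-DG lists and 0 in all 4 control lists, a difference of 82.7. Its 2-DG values are those of the upstream region, nearest to Ccdc9. The lowest 2-DG list lay above the highest control list at these 4 of 7 members, where 3.03% of all protein-coding genes showed this. The reverse order was seen at 0 members (0.114% of all genes), and within 2 kb of the gene ends the 2-DG lists lay above at 3 members (0.781% of all genes). At each of the 4, the two-sided exact permutation test gave 0.0286, the smallest p that 70 assignments of 8 lists allow, and a Benjamini-Hochberg adjusted p of 0.500 over the 12051 genes with a peak. None of the 4 passed after adjustment, and over all genes 0 passed while 689 had an unadjusted exact permutation p under 0.05. Fisher's exact test on the presence of a peak also called 0 genes after adjustment and 334 at an unadjusted p under 0.05, Bbc3 among them (unadjusted Fisher's exact p = 0.0286). Pmaip1 and Bcl2l11 had exact permutation p-values of 1.00. The median difference was 62.4 percentile points over the 7 members, with Tnfrsf10b counted at 0, and 4.85 over the 12051 genes with a peak. These sets are unlike, since genes without a peak are left out of the second, and the members were chosen with earlier results of these data known.

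A single control list carried part of these values. Ddit3 had a control peak in control list 1 alone, at a percentile of 96.7 against 97.3 to 99.5 in the 2-DG lists, and without that list its difference was 98.3 points in place of 74.1. Within 2 kb of the ends of Ddit3, which leaves out the Mars1 start, the difference was 73.8 (exact permutation p = 0.0286, adjusted p = 0.397). With 3461 peaks taken from every list, the Ddit3 groups overlapped (difference 72.4, exact permutation p = 0.0857, adjusted p = 0.842). Trib3 within 2 kb of its ends had no control peak, and its difference was 98.8 (exact permutation p = 0.0286, adjusted p = 0.397). Bbc3 within 2 kb of its ends had a peak in 2 of 4 2-DG lists, with a difference of 27.2 (exact permutation p = 0.429). With 5 kb on either side of Bbc3, which leaves out the upstream region, the difference was 33.6 (exact permutation p = 0.429). With 50 kb on either side, all 4 lists of both treatments had a peak, and the difference was 9.48 (exact permutation p = 0.314).

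Recurrent peaks were next counted at 39 related genes. Of 6 partner or target genes, 5 had a peak in all 4 2-DG lists, where 5.95% of all genes did. Of these, 3 (Cebpb, Ero1a and Ppp1r15a) had none in any control list, where 1.51% of all genes showed both. Of the other 33 genes, 1 had a peak in all 4 2-DG lists, where 5.95% of all genes did. This gene was Cdkn1a, encoding the cell cycle inhibitor p21, with peaks in 2 of 4 control lists. Its highest peak in 2-DG list 1 lay 11670 bp outside the gene. Of 22 death machinery genes (BH3-only genes other than the members, BAX-type effectors, pro-survival BCL-2 genes, death receptor genes and caspases with APAF1), none had a peak in more than 2 lists of either treatment. Over all genes, 12.0% had a peak in at least 3 2-DG lists and 4.83% in at least 3 control lists. At least 1 2-DG list had a peak at 9 of these 22 (43.7% of all genes), and at least 1 control list at 9 (35.1% of all genes), counts near those shares. Adjusted p-values were 0.500 at the lowest, so none of the 39 genes passed, and the median difference over the 39 was 0 percentile points. The gene lists were chosen with earlier results of these data known.

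The partner and target genes differed in where the highest peak lay, with positions given for 2-DG list 1. Atf5, a stress-response bZIP gene, had percentiles of 99.9, 99.7, 99.2 and 99.1 in 2-DG lists 1 to 4 and 64.4 in control list 1, with its highest peak 1801 bp outside the gene. Ddit4, encoding the mTORC1 inhibitor REDD1, had 99.8, 99.6, 98.6 and 98.2 in 2-DG lists 1 to 4, and 94.6 in control list 3. Ero1a, an oxidase gene of the endoplasmic reticulum and a CHOP target, had 98.9, 96.2, 96.5 and 95.0 in 2-DG lists 1 to 4 and no control peak. The highest Ero1a peak of 2-DG list 1 was 6872 bp outside the gene and nearer to an end of Psmc6. Within 2 kb of the ends of Ero1a, 2 of 4 2-DG lists had a peak. Cebpb, encoding a partner of ATF4 and CHOP, had 95.9, 92.9, 31.6 and 83.8 in 2-DG lists 1 to 4 and no control peak, and its peak lay at the gene. Ppp1r15a, encoding GADD34, which restores translation by eIF2 dephosphorylation, had 81.7, 72.7, 11.1 and 33.4 in 2-DG lists 1 to 4 and no control peak. The nearest gene end to its highest peak in 2-DG list 1 was that of the overlapping gene Tulp2, 108 bp away. Within 2 kb of the ends of Ppp1r15a, 3 of 4 2-DG lists had a peak. The percentile of 11.1 in 2-DG list 3 is that of a fold of 3.91, the lowest in that list. The Ppp1r15a values were spread more widely over the 2-DG lists than those of Ddit3, Trib3 and Chac1. Of the relatives of the members, Trib2 had percentiles of 45.2, 64.8 and 46.0 in 2-DG lists 1, 3 and 4, against 31.7 in control list 2, and Trib1, Chac2 and Ggct had none. Gadd45a, a growth arrest gene, had 97.1, 86.6 and 79.8 in 2-DG lists 1, 2 and 4, against 10.5 in control list 4. Car6, the remaining gene of the partner and target group, had no peak.

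**Figure D5:**
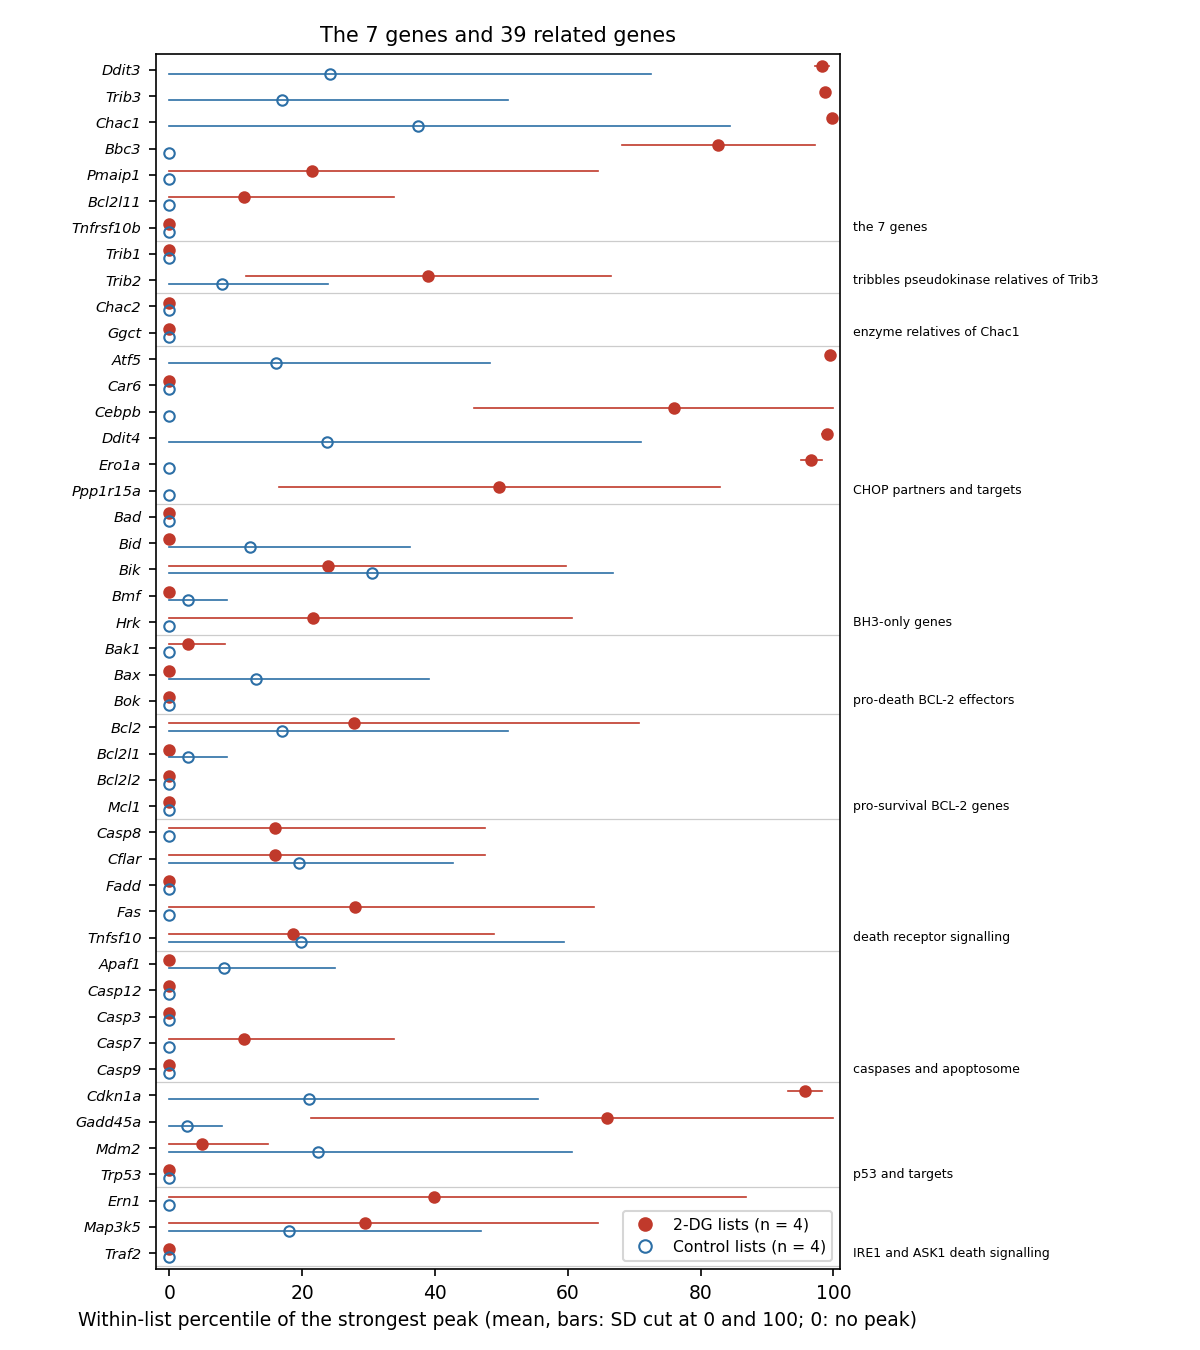
Within-list percentile of the highest peak in the window, for the 7 members and the 39 related genes grouped by role, as means over the 4 2-DG lists (filled red) and the 4 control lists (open blue) with SD bars cut at 0 and 100. The 2-DG means of Ddit3, Trib3 and Chac1 lay at 98.3 to 99.8, and that of Tnfrsf10b lay at 0. The Ddit3 values are those of the peak at the Mars1 start.

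Genes with the most similar 8 percentiles were found by Euclidean distance, leaving out genes whose window overlaps that of the member. For Ddit3 they were Cars and Tnfrsf26, which share 1 peak at Cars (distance 1.12 percentile points), and S100pbp, whose peak crosses an end of Yars (1.24). The Ddit3 percentiles compared here are all those of the peak at the Mars1 start, so this likeness is to that peak and not to the Ddit3 start region. For Trib3 they were Nrl, whose highest peak lies at Pck2 (0.215), and the neighbours Atpif1 and Sesn2 (11.4 each). For Chac1 they were Eif1 (4.82), Serpinh1 (7.90) and Slc7a5 (19.0), and for Bbc3 Arhgef2 (2.10), Foxd2 (3.59) and Cdhr3 (4.34). Likeness over 8 lists, in which a missing peak counts as 0, depends mostly on which control lists hold a peak.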

How the data were processed

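Each list belongs to 1 sample. The submitters' processing notes name the mm10 build and, without versions, BWA, Picard, MACS2 and DiffBind. For each summit the deposited lists give a fold enrichment, which is a ratio. They also give the authors' p and q on a -log10 scale. The deposited score is the whole part of -log10 q multiplied by 10. Settings and any control library are not given in the sources used here. A repeated interval was counted once, at its highest summit by fold, and ranked by fold within its list.

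Gene positions, strands and promoters came from RefSeq tables of GRCm38.p6, the assembly mm10 names. Peaks touching a window by at least 1 bp counted. Regions are merged peaks of the 8 lists. Exact permutation tests ran over 70 assignments and Fisher's exact tests on presence, with Benjamini-Hochberg adjustment over 12051 genes, in Python 3.11.15 with scipy 1.17.1. The 4 samples with conflicting titles and descriptions, 2 of them with lists, entered no group, and input samples were not analysed here. The code was tested on simulated data. Members and gene lists were chosen with earlier results of these data known. Named genes were the 7 members, up to 10 related genes with a peak in at least 3 of 4 2-DG lists, the genes nearest to each region, and the 3 most similar genes of members with a peak in at least 3 lists; other related genes are named as such after their values were seen. Alternatives are given in the closing section.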

Additional observations from a re-analysis of the deposited data

Results flagged for a closer look

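Over 7 genes and 2 treatments, 4 of 14 groups had a single list that stood far apart, where chance gives about 1 in 20. All 4 are a single list with a peak beside 3 at 0, which always passes this limit. They were Pmaip1 (percentile 85.9) and Bcl2l11 (45.2), both in 2-DG list 1, and Ddit3 in control list 1 (96.7) and Trib3 in control list 3 (68.1). The control value of Ddit3 belongs to the peak at the Mars1 start, and the Trib3 value to the interval 15996 bp before the gene start.

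A list outside both groups, titled 2-DG (title number 18) and described as control, held peaks above every control list at 4 members. Its percentiles were 97.0 for Ddit3, 97.1 for Trib3, 99.6 for Chac1 and 89.4 for Bbc3, against highest control values of 96.7, 68.1, 97.5 and 0.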

How the results depend on the processing

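No paired analysis was possible because the titles carry running numbers that no 2 samples share. The difference between treatments kept its direction or was 0 under 19 alternatives each for the 6 members with a peak. Tnfrsf10b, at 0 in the main setting, moved only with 50 kb on either side, to 5.95 with a peak in 1 list of each treatment. No gene passed after adjustment under any alternative (lowest adjusted p for a member 0.179, by an exact permutation test with the conflicting lists added by title). Of 21887 genes, 330 were called in every 2-DG list and absent from the controls, 1 of them a member. The count of genes was 124 within 2 kb of gene ends, 4 with the conflicting lists added by description, and 335 to 564 when a list was left out, highest without 2-DG list 3. The count of members was 0 with 50 kb on either side, where Bbc3 gained peaks in all 4 control lists, 0 with the conflicting lists added by description, and 1 to 2 when a list was left out (2 without control list 1 or control list 3). Members whose groups did not overlap numbered 4. They numbered 3 at -log10 q of at least 5, with lists of equal length, within 2 kb of gene ends, and with 5 kb or 50 kb on either side, and 0 with the conflicting lists added by description, which put the list of title number 18 among the controls. Leaving out any list raises the smallest exact p to 0.0571. Depth is unknown, so no limit of detection can be set.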

Other observations

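The list titled control (title number 17) and described as 2-DG, which entered no group, had no peak in the window of any of the 7 genes. The list titled 2-DG (title number 18) and described as control had folds of 45.1 at the Chac1 start, 13.2 at the Trib3 start, 11.1 in the Ddit3 start region, 9.38 at the upstream Trib3 region and 6.95 at the upstream Bbc3 region.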
